A study of Bos taurus with 15 samples.

Results

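The growth hormone receptor and the insulin-like growth factor (IGF) system were described in subcutaneous adipose tissue of dairy cows around calving. The members were the 10 genes *GHR*, *IGF1*, *IGF2*, *IGF1R*, *IGF2R*, *IGFBP2*, *IGFBP3*, *IGFBP4*, *IGFBP5* and *IGFBP6*, taken by symbol from 13896 genes, and all 10 had a value in each of the 6 comparison tables. The tissue came from Prim Holstein primiparous cows, and RNA was sequenced in 15 libraries, 3 for each of 5 groups. The first group was sampled 1 month before calving, before the diets began. The MNEB cows (moderate negative energy balance, fed a high energy diet) and the SNEB cows (severe negative energy balance, fed a low energy diet) were each sampled at 1 and 16 weeks postpartum (wkpp). The cows of each NEB group were those the study picked for the most extreme energy balance at 1 wkpp, the diet and the NEB status go together in all libraries after calving, and the libraries before calving serve as the reference for both NEB groups.

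Growth hormone acts on adipose tissue through its receptor GHR, which signals through JAK2 and STAT5, favours lipolysis and drives the production of IGF1. The liver is the main source of circulating IGF1, and in early lactation of dairy cows the hepatic receptor falls and the growth hormone and IGF1 axes uncouple. IGF1 and IGF2 signal through IGF1R, IGF2R binds IGF2 and carries it to lysosomes, and the binding proteins (IGFBPs) hold the ligands in blood and tissue and modulate their access to the receptors.

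Values are normalized exon reads, meaning the reads on the exons of a gene in 1 library divided by a factor for the depth of that library, and the same was done for reads on the entire gene, introns included. A gene passed the test when limma voom gave an adjusted p below 0.01 for exon reads and for entire-gene reads alike, in 1 direction, and differences are given on the log2 scale ± SE. Libraries of a group are numbered and given in the order of their size factor, a measure of depth, the largest first, and these numbers do not name a cow or pair libraries between groups. By its methods the study took biopsies of each animal at every time, so libraries of different times may come from the same cows. The labels tie no library to a cow, and the tests across times treated all libraries as independent. Levels are not compared between genes, because gene lengths were not used. Where exon levels of groups are said not to overlap, the share of all genes without overlap was not counted. Such statements describe the libraries and are no test.

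The MNEB libraries stood apart from all others. They held 2030620 to 7538334 exon reads, against 8215419 to 14855900 in the other 9 libraries. Synthetic spike-in RNAs took 14.9 to 32.9% of exon reads in MNEB cows at 1 wkpp and 9.69 to 17.3% at 16 wkpp, against 0.667 to 3.28% elsewhere. Depth and NEB group therefore cannot be told apart in any comparison of MNEB libraries with another group. The study's sequencing summary lists similar total reads for MNEB and other libraries, but a lower share of uniquely mapped reads in all MNEB ones. Depth here thus means reads counted on genes, and the mapping difference cannot be told apart from the NEB group either. The adipocyte markers *PLIN1*, *CIDEC*, *FABP4* and *LPL* were detected in all groups (4 of 5 listed markers were analysed), and their summed level was 61690 to 64190 before calving, 65260 to 80290 and 39440 to 46070 in SNEB cows at 1 and 16 wkpp, and 13910 to 48360 and 8567 to 32470 in MNEB cows. The stromal markers *PDGFRA*, *DCN* and *LUM* (3 of 5 listed) summed to 59840 to 70980 before calving, 34040 to 52490 and 67960 to 76410 in SNEB cows, and 6504 to 11940 and 9042 to 22120 in MNEB cows. The macrophage list (4 of 5 listed) summed to 6478 to 10640 before calving, 8857 to 16470 and 14930 to 18590 in SNEB cows, and 2128 to 7428 and 2123 to 2600 in MNEB cows. The endothelial list (5 of 5) was at 19340 to 23530 before calving, at 29840 to 63540 in MNEB and 29590 to 36740 in SNEB cows at 1 wkpp, and at 23800 to 34170 and 22300 to 25490 at 16 wkpp. The smooth muscle list (5 of 5) was at 10450 to 48150 before calving, at 11420 to 22310 in MNEB and 8661 to 17170 in SNEB cows at 1 wkpp, and at 19850 to 65970 and 4502 to 16030 at 16 wkpp, where the NEB groups did not overlap. The keratinocyte list (5 of 5) was at 35.57 to 86.11 before calving, at 2.094 to 310.1 in MNEB and 0.5428 to 1.967 in SNEB cows at 1 wkpp, where *KRT14* and *KRT15* had no exon read in SNEB cows, and at 0 to 27.51 and 0.6478 to 7.304 at 16 wkpp. The skeletal muscle list (5 of 5) reached 1176 to 3965 in MNEB cows at 1 wkpp against 70.51 to 341.6 before calving, nearly all of it from *TNNT3*, while *MYLPF* had no exon read before calving. At 16 wkpp it was 1689 to 3799 in MNEB and 222.9 to 338.1 in SNEB cows. The mammary casein *CSN3* was near the floor everywhere, with 0 to 2 exon reads before calving, 0 to 1 in MNEB cows and none in SNEB cows. The mammary list (4 of 5 listed) summed to 12.88 to 95.68 before calving. It was at 24.09 to 124.8 in MNEB and 25.85 to 136.8 in SNEB cows at 1 wkpp, and at 5.163 to 21.61 and 19.82 to 46.64 at 16 wkpp. The hepatocyte list lay between 160.5 and 829.6 in all groups. At 1 wkpp it was 409.8 to 573.9 in MNEB and 598.7 to 829.6 in SNEB cows, without overlap. In bulk tissue, fewer cells of a type and less RNA per cell cannot be told apart, and the part of these lists in the results below was not tested.

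**Figure D1:**
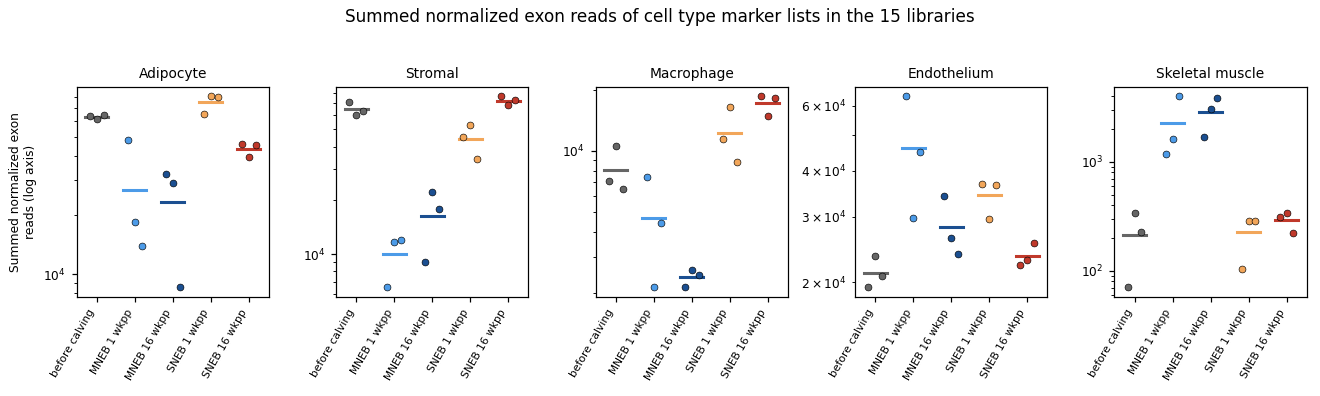
Summed normalized exon reads (log axis) of 5 cell type marker lists, with a point for each of the 15 libraries and a line at the mean of each group of 3. Stromal sums lie between 6504 and 22120 in the MNEB libraries against 34040 to 76410 elsewhere, the mean adipocyte and macrophage sums are also lowest in the MNEB groups, and the skeletal muscle sum is highest in the MNEB libraries.

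Few members passed the test, and those that did came from comparisons with MNEB cows. *IGFBP6* fell in MNEB cows from before calving to 1 wkpp, and *IGFBP3* was higher in SNEB than in MNEB cows at 16 wkpp. In MNEB cows 1 of 10 members passed from before calving to 1 wkpp, where 3.27% of all 10504 genes tested did. Of the 343 genes that passed there, 46.4% were higher at 1 wkpp, and 65.4% of 543 with libraries scaled to their total count. Between the SNEB and MNEB groups at 16 wkpp, 1 of 10 passed, where 5.08% of 10372 genes did. No member passed from before calving to 1 wkpp in SNEB cows, from 1 to 16 wkpp in either NEB group, or between the SNEB and MNEB groups at 1 wkpp. In these 4 comparisons limma voom passed 0 genes of all those tested, so the background was 0% as well. These counts depend on the fit. With a quality weight per library limma voom passed 1 member from before calving to 1 wkpp in SNEB cows and 2 for SNEB against MNEB cows at 1 wkpp, while limma with a variance trend passed 0 members in all 6 comparisons. No negative binomial test was run here. With DESeq2 the study listed *IGFBP3* in SNEB cows from before calving to 1 wkpp, and *IGFBP6* in MNEB cows from 1 to 16 wkpp, among its differentially expressed genes. These zeros therefore do not show that the levels were alike.

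Members with an exon p below 0.05 before adjustment were counted beside all genes. Such a p was found for 9 of 10 members from before calving to 1 wkpp in MNEB cows, against 42.3% of all genes, and 5 of 10 in SNEB cows, against 14.5%. From 1 to 16 wkpp the counts were 3 of 10 in MNEB cows against 13.5% of all genes, and 3 of 10 in SNEB cows against 7.2%. Between SNEB and MNEB cows they were 7 of 10 at 1 wkpp against 32.6%, and 7 of 10 at 16 wkpp against 37.9%. The median log2 difference over the members was -1.01 from before calving to 1 wkpp in MNEB cows and 0.61 and 0.69 for SNEB over MNEB cows at 1 and 16 wkpp, where the medians over all genes were -0.06, 0.08 and 0.03. In the other 3 comparisons the median over the members lay between -0.02 and 0.10.

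**Figure D2:**
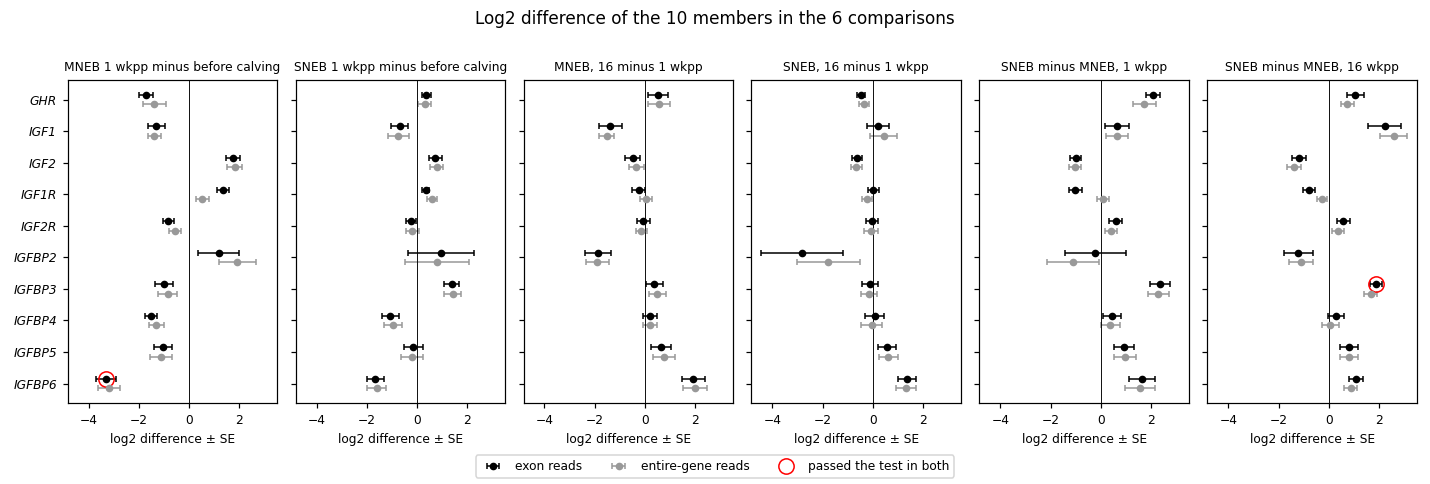
Log2 difference ± SE (limma voom, 3 libraries against 3) of the 10 members in the 6 comparisons, in black for exon reads and in grey for entire-gene reads, with a red ring where both passed. Rings stand only at *IGFBP6* (-3.30) in the first panel and *IGFBP3* (1.89) in the last, and the black and grey points of *IGF1R* part most clearly in the comparisons with MNEB cows.

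*GHR*, the receptor through which growth hormone acts on the adipocyte, had its lowest levels in MNEB cows. Its normalized exon reads were 2928, 2397 and 2335 in the 3 libraries before calving. In MNEB cows they were 980.2, 895.6 and 502.1 at 1 wkpp and 1836, 1133 and 639.1 at 16 wkpp. In SNEB cows they were 3217, 3745 and 2942 at 1 wkpp and 2447, 2193 and 2313 at 16 wkpp. All 6 MNEB libraries lay below all 9 others, SNEB libraries at 1 wkpp were the highest, and those before calving and of SNEB cows at 16 wkpp overlapped.

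The *GHR* difference between the SNEB and MNEB groups at 1 wkpp was 2.08 ± 0.28 on the log2 scale in exon reads (4.24-fold, adjusted p = 0.00736), but 1.73 ± 0.45 in entire-gene reads with an adjusted p of 0.0788, so it did not pass in both. It passed in both without MNEB library 1 and with a quality weight per library. From before calving to 1 wkpp in MNEB cows it was -1.71 ± 0.27 in exon reads (adjusted p = 0.00148) and -1.38 ± 0.44 in entire-gene reads (adjusted p = 0.0791). Both comparisons rest on *GHR* counts of 136 to 936 exon reads in MNEB cows at 1 wkpp. In SNEB cows, the values were 0.37 ± 0.18 from before calving to 1 wkpp (adjusted p = 0.384) and -0.48 ± 0.15 from 1 to 16 wkpp (adjusted p = 0.684). Neither passed, and the libraries did not overlap in either comparison. In MNEB cows the value from 1 to 16 wkpp was 0.51 ± 0.41 (adjusted p = 0.595), with overlapping libraries. At 16 wkpp the SNEB libraries lay 1.06 ± 0.35 above those of MNEB cows (adjusted p = 0.0541), and the value was 0.34 with the deepest MNEB library alone. The adipocyte marker sum was also lower in MNEB than in SNEB libraries at both times. The 4 markers were 1.45 to 2.02 higher in SNEB cows at 1 wkpp and 1.11 to 1.66 higher at 16 wkpp in exon reads. *CIDEC*, a lipid droplet protein, was at 1.82 and 1.66. None of the 4 passed the test at either time.

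*IGF1*, the ligand whose production growth hormone drives, was lowest in MNEB cows at 16 wkpp. Its normalized exon reads were 236.4, 326.3 and 231.7 before calving. They were 131.9, 97.7 and 62.76 in MNEB cows at 1 wkpp and 27.51, 46.47 and 73.43 at 16 wkpp. SNEB cows had 147.1, 272.5 and 104.3 at 1 wkpp and 174.3, 110.6 and 336.9 at 16 wkpp, a wide spread that reached into the range before calving.

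For *IGF1* the difference between the SNEB and MNEB groups at 16 wkpp was 2.21 ± 0.64 in exon reads (4.64-fold, adjusted p = 0.0366) and 2.58 ± 0.54 in entire-gene reads (adjusted p = 0.0146), short of the threshold in both, with no overlap between the libraries. From before calving to 1 wkpp in MNEB cows it was -1.31 ± 0.34 (adjusted p = 0.0146) and -1.38 ± 0.26 (adjusted p = 0.0136) in the same order, and the libraries again did not overlap. The other *IGF1* differences were -0.69 ± 0.33 from before calving to 1 wkpp in SNEB cows, -1.38 ± 0.45 from 1 to 16 wkpp in MNEB cows, 0.20 ± 0.45 for the same weeks in SNEB cows and 0.63 ± 0.48 between the SNEB and MNEB groups at 1 wkpp, with adjusted p from 0.276 to 0.915. The counts behind the MNEB values were small, 17 to 126 exon reads at 1 wkpp and 18 to 28 at 16 wkpp.

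*IGF2*, the second ligand, had its highest levels in MNEB cows. The libraries before calving had 4111, 7590 and 6313 normalized exon reads. MNEB cows had 20980, 15780 and 22890 at 1 wkpp and 10180, 18790 and 13380 at 16 wkpp. SNEB cows had 11420, 8559 and 9230 at 1 wkpp and 5411, 7760 and 5527 at 16 wkpp. At each time every MNEB library lay above every SNEB library, and in both NEB groups every library at 1 wkpp lay above those before calving.

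The *IGF2* difference from before calving to 1 wkpp was 1.74 ± 0.27 in MNEB cows in exon reads (3.35-fold, adjusted p = 0.00127), with an adjusted p of 0.0105 in entire-gene reads, just over the threshold. Scaled to the total count or to the upper quartile instead, it passed in both. In SNEB cows the same step was 0.73 ± 0.25 (adjusted p = 0.209), and the change from 1 to 16 wkpp was -0.50 ± 0.29 in MNEB cows (adjusted p = 0.473) and -0.63 ± 0.21 in SNEB cows (adjusted p = 0.684). SNEB lay below MNEB cows by -1.0 ± 0.23 at 1 wkpp (adjusted p = 0.0214) and by -1.18 ± 0.27 at 16 wkpp (adjusted p = 0.0137), both outside the threshold. These values rest on 4920 to 21046 exon reads per library, so counting error is small.

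**Figure D3:**
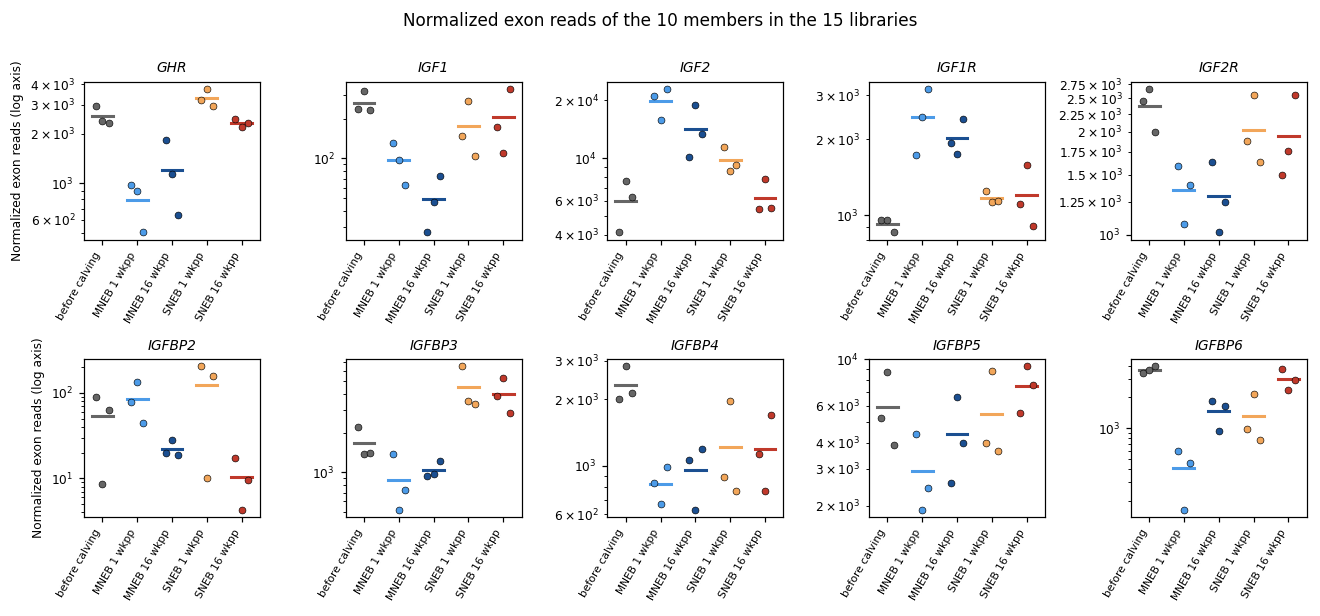
Normalized exon reads (log axis, its range set for each gene) of the 10 members, with a point for each of the 15 libraries and a line at the mean of each group of 3. *GHR* lies between 502.1 and 1836 in the MNEB libraries and at 2193 or more elsewhere, *IGF2* and *IGF1R* are highest in MNEB cows, and *IGFBP6* is lowest in MNEB cows at 1 wkpp.

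*IGF1R*, the receptor that transmits the signal of both ligands, had 956.5, 953.1 and 853.6 normalized exon reads before calving. It had 1729, 2459 and 3182 in MNEB cows at 1 wkpp and 1944, 1745 and 2412 at 16 wkpp. SNEB cows had 1245, 1132 and 1136 at 1 wkpp and 1107, 1585 and 908.3 at 16 wkpp. The 6 MNEB libraries were the 6 highest of all.

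Exon and entire-gene reads of *IGF1R* parted. From before calving to 1 wkpp in MNEB cows the difference was 1.36 ± 0.24 in exon reads (2.58-fold, adjusted p = 0.00222) but 0.53 ± 0.26 in entire-gene reads (adjusted p = 0.210). SNEB lay below MNEB cows at 1 wkpp by -1.01 ± 0.24 in exon reads (adjusted p = 0.0245), while entire-gene reads gave 0.08 ± 0.24 (adjusted p = 0.849), the other sign. At 16 wkpp the values were -0.79 ± 0.23 (adjusted p = 0.0364) and -0.27 ± 0.19 (adjusted p = 0.370). In SNEB cows *IGF1R* differed from before calving by 0.34 ± 0.15 at 1 wkpp (adjusted p = 0.321) and between 1 and 16 wkpp by 0.02 ± 0.21 (adjusted p = 0.984), and between the same weeks in MNEB cows by -0.25 ± 0.26 (adjusted p = 0.690).

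*IGF2R*, which clears IGF2 to the lysosome, was the member with the smallest spread between group means, 1.83-fold from the highest to the lowest. It had 2455, 2667 and 1995 normalized exon reads before calving, 1589, 1077 and 1399 in MNEB cows at 1 wkpp and 1626, 1017 and 1248 at 16 wkpp. In SNEB cows it had 1878, 2565 and 1632 at 1 wkpp and 1500, 1758 and 2552 at 16 wkpp. The MNEB libraries at 1 wkpp lay below those before calving and below those of SNEB cows at 1 wkpp, but the differences of -0.82 ± 0.23 (adjusted p = 0.0211) and 0.59 ± 0.25 (adjusted p = 0.135) did not pass. The other 4 comparisons gave -0.24 to 0.58 with adjusted p from 0.123 to 0.964.

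Among the binding proteins, *IGFBP6*, which binds IGF2 in preference to IGF1, was the member that passed between the libraries before calving and those at 1 wkpp. It had 3449, 3684 and 4014 normalized exon reads before calving and only 603.2, 162.8 and 465.2 in MNEB cows at 1 wkpp. By 16 wkpp MNEB cows had 1826, 934.5 and 1651. SNEB cows had 977.6, 2166 and 779.1 at 1 wkpp and 3744, 2376 and 2962 at 16 wkpp. In both NEB groups every library at 1 wkpp lay below those before calving and below those at 16 wkpp.

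*IGFBP6* fell by 3.30 ± 0.40 from before calving to 1 wkpp in MNEB cows (9.85-fold, adjusted p = 0.000406 in exon and 0.00546 in entire-gene reads), and 0.866% of the genes tested had a lower value. The call was lost with limma trend, without a filter on low counts, without any 1 library before calving or without MNEB library 3, and the difference with the deepest MNEB library alone was -2.59, not called. In SNEB cows the same step was -1.65 ± 0.34 (3.15-fold, adjusted p = 0.0582), and it passed in both analyses when SNEB library 2, the highest of the group, was left out. From 1 to 16 wkpp *IGFBP6* differed by 1.93 ± 0.45 in MNEB cows (adjusted p = 0.220) and by 1.35 ± 0.37 in SNEB cows (adjusted p = 0.684). SNEB lay above MNEB cows by 1.64 ± 0.52 at 1 wkpp (adjusted p = 0.0613) and by 1.08 ± 0.29 at 16 wkpp (adjusted p = 0.0274). The stromal markers *DCN*, *LUM* and *PDGFRA* also passed as lower in MNEB cows at 1 wkpp than before calving, by -2.83, -2.87 and -2.40.

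*IGFBP3*, the main carrier of IGF1 in blood, was the member that passed between SNEB and MNEB cows. It had 2222, 1384 and 1417 normalized exon reads before calving. SNEB cows had 6491, 3523 and 3349 at 1 wkpp and 3860, 5215 and 2819 at 16 wkpp. MNEB cows had 1391, 518.3 and 734.7 at 1 wkpp and 943.1, 970.6 and 1232 at 16 wkpp. All 6 SNEB libraries lay above all others, and all MNEB libraries at 16 wkpp lay below those before calving.

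At 16 wkpp *IGFBP3* was 1.89 ± 0.24 higher in SNEB than in MNEB cows (3.71-fold, adjusted p = 0.00127 in exon and 0.00438 in entire-gene reads). The call was lost with limma trend, without any 1 of the 3 MNEB libraries or without SNEB library 1, while the difference was 2.03 with the deepest MNEB library alone. The stromal marker *DCN* and the macrophage markers *CD163* and *CSF1R* passed in the same direction, by 2.20, 3.30 and 1.97. The summed smooth muscle markers differed the other way, with no overlap, and the muscle gene *TNNT3* passed as lower in SNEB cows, by -3.28. At 1 wkpp the difference was 2.36 ± 0.40 (5.14-fold), and its adjusted p was 0.01003 in exon and 0.0402 in entire-gene reads. It passed in both when MNEB library 1 was left out. From before calving to 1 wkpp *IGFBP3* differed by 1.38 ± 0.30 in SNEB cows (adjusted p = 0.0660), where the libraries did not overlap, and by -0.98 ± 0.36 in MNEB cows (adjusted p = 0.0602), where they did. From 1 to 16 wkpp the values were -0.12 ± 0.31 in SNEB and 0.36 ± 0.34 in MNEB cows.

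*IGFBP4*, which inhibits IGF action until it is cleaved, was highest before calving. It had 2015, 2837 and 2144 normalized exon reads then, 833.6, 667.6 and 985.7 in MNEB cows at 1 wkpp and 1059, 629.9 and 1191 at 16 wkpp. SNEB cows had 888.1, 1975 and 766.6 at 1 wkpp and 1125, 764.7 and 1692 at 16 wkpp. No library after calving reached the level of any before calving. The difference to 1 wkpp was -1.51 ± 0.23 in MNEB cows, with an adjusted p of 0.00127 in exon but 0.0225 in entire-gene reads, and -1.06 ± 0.34 in SNEB cows (adjusted p = 0.185). After calving the groups overlapped, and the 4 differences lay between 0.06 and 0.45 with adjusted p from 0.411 to 0.970.

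*IGFBP5* and *IGFBP2* are next to each other on chromosome 2 in the RefSeq annotation of ARS-UCD2.0, with no other protein-coding gene between them. *IGFBP5*, a binding protein that also attaches to extracellular matrix, had 5231, 8659 and 3899 normalized exon reads before calving, 4392, 1911 and 2440 in MNEB cows at 1 wkpp and 2553, 6603 and 3973 at 16 wkpp. SNEB cows had 3982, 8747 and 3654 at 1 wkpp and 5540, 9279 and 7514 at 16 wkpp. The libraries overlapped in all 6 comparisons, and the differences, from -1.05 to 0.90, had adjusted p of 0.0522 to 0.899.

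*IGFBP2*, a binding protein prominent in fetal life, varied widely between libraries of a group. It had 89, 8.586 and 63.79 normalized exon reads before calving, 77.49, 135.7 and 44.3 in MNEB cows at 1 wkpp and 206.3, 10.11 and 159.4 in SNEB cows at 1 wkpp. At 16 wkpp it had 19.65, 28.4 and 19.04 in MNEB cows and 17.22, 4.303 and 9.718 in SNEB cows. Every MNEB library was lower at 16 than at 1 wkpp, with a difference of -1.86 ± 0.52 (adjusted p = 0.241). In SNEB cows the difference was -2.82 ± 1.63 (adjusted p = 0.704), and 1 library at 1 wkpp was as low as those at 16 wkpp. Leaving out 1 library moved it over -4.25 to -1.96. The other 4 comparisons gave -1.22 to 1.18 with adjusted p from 0.162 to 0.916. Counts were 7 to 380 exon reads, and leaving out 1 library turned the sign of 2 of these differences and moved the 1.18 from before calving to 1 wkpp in MNEB cows over 0.07 to 1.99.

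The share of entire-gene reads that fell outside exons differed widely between the members, and for most of them less between the groups. It was 86.5 to 94.6% for *GHR*, 71.9 to 89.2% for *IGF1* and 63.6 to 90.6% for *IGF1R*, so most reads of these genes were intronic. It was 0.92 to 2.3% for *IGF2*, 1.48 to 5.72% for *IGFBP6* and 5.05 to 14.4% for *IGFBP3*. *IGF2R*, *IGFBP4* and *IGFBP5* lay between 14 and 34.5%, 8.37 and 20.8%, and 5.19 and 21.9%. In *IGF1R* the share was 85.9, 69.4 and 63.6% in MNEB cows at 1 wkpp and 71.9 to 79.6% at 16 wkpp. It was 80.4 to 90.4% before calving and 85.2 to 90.6% in SNEB cows, so the deepest MNEB library at 1 wkpp lay within both of these ranges.

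Over 60 tests of the intronic share (exact two-sided permutation test, 10 members in 6 comparisons), none could pass, since 3 libraries against 3 cannot give a p below 0.1. The *IGF1R* share of SNEB cows was higher than that of MNEB cows by 15.2 points at 1 wkpp and by 9.38 points at 16 wkpp, with no overlap (exact permutation p = 0.1, adjusted p = 0.5 for both). Over all genes the median shift was 1.65 and 5.39 points in the same direction. The *IGF1* share was higher in SNEB cows at 16 wkpp by 8.59 points and the *IGFBP5* share by 10.6 points (exact permutation p = 0.1, adjusted p = 0.5 for both). The *IGFBP2* share was lower in SNEB than in MNEB cows at 1 wkpp by -41.2 points (exact permutation p = 0.1, adjusted p = 0.5). The other shares without overlap, each at the same p, were those of *IGFBP4* from before calving to 1 wkpp in MNEB cows (7.29 points), of *IGF2R* and *IGFBP6* from 1 to 16 wkpp in MNEB cows (-10.4 and -2.22), of *IGF1*, *IGFBP2* and *IGFBP5* for the same weeks in SNEB cows (2.69, 42.5 and 5.34), and of *IGFBP6* for SNEB over MNEB cows at 16 wkpp (1.19). From before calving to 1 wkpp the shares did not overlap for 1 of 10 members in MNEB and 0 of 10 in SNEB cows, against 28.7% and 5.03% of 10291 genes. From 1 to 16 wkpp this held for 2 of 10 in MNEB and 3 of 10 in SNEB cows, against 13.6% and 6.87% of the genes. For SNEB against MNEB cows it held for 2 of 10 at 1 wkpp and 4 of 10 at 16 wkpp, against 31.4% and 39% of the genes. The median shift over all genes was -1.65 and -0.18 points from before calving to 1 wkpp in MNEB and SNEB cows, and -1.74 and 0.38 points from 1 to 16 wkpp. For *IGFBP2*, whose entire-gene reads were few, the share was 12.8 to 28% in SNEB cows at 1 wkpp and 44.4 to 75.9% at 16 wkpp.

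**Figure D4:**
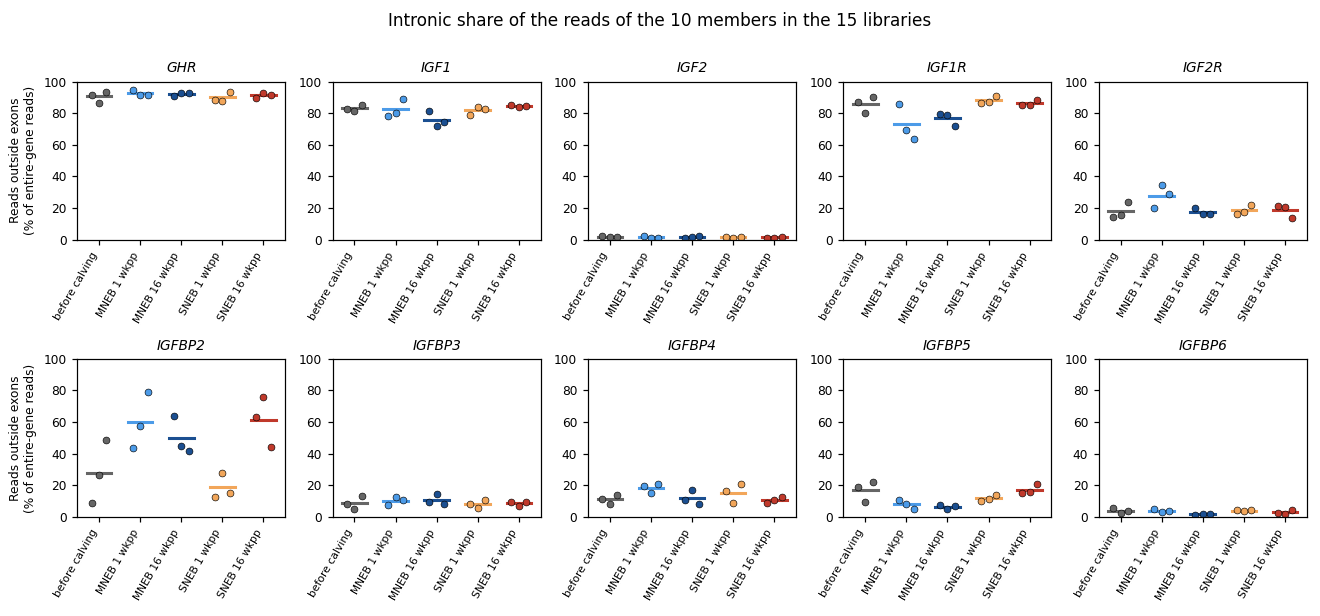
Reads outside exons as a percentage of the entire-gene reads of the 10 members, with a point for each of the 15 libraries and a line at the mean of each group of 3. *GHR* stays between 86.5 and 94.6%, *IGF2* stays at or below 2.3%, and the means of *IGF1R* are lowest in the MNEB groups.

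Whether the change from 1 to 16 wkpp differed between SNEB and MNEB cows was tested as an interaction over the 12 libraries after calving. No member passed and neither did any of the 10420 genes (0%), and no member had an exon p below 0.05 before adjustment, where 4.96% of all genes did. The widest differences of change were 1.60 ± 0.87 for *IGF1* (adjusted p = 0.985 in exon reads and 0.790 in entire-gene reads), where a positive value means a higher change in SNEB cows, and -1.0 ± 0.48 for *GHR* (adjusted p = 0.985).

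Other genes of the pathway were taken as a list of 38 (further binding proteins, proteases and stanniocalcins, receptor adaptors, and STAT, SOCS, PI3K and AKT genes), of which 29 were analysed and 21 to 23 had enough reads for the test. *INSR*, *IRS1*, *IRS2*, *JAK2*, *PAPPA*, *PAPPA2*, *PDPK1*, *PTPN11* and *SOCS1* of the list were not analysed here. *PDK1*, also on it, encodes a pyruvate dehydrogenase kinase rather than a kinase of this pathway. In MNEB cows 1 of 23 passed from before calving to 1 wkpp, against 3.27% of all genes, namely *PIK3R1*, the regulatory subunit of PI3K, which was lower at 1 wkpp by -1.61 ± 0.27 (adjusted p = 0.00191 in exon and 0.00426 in entire-gene reads). Its normalized exon reads were 6603, 4169 and 4305 before calving and 1182, 2155 and 1661 at 1 wkpp. Between the SNEB and MNEB groups at 16 wkpp 1 of 23 passed, against 5.08% of all genes, namely *AKT1*, a kinase downstream of PI3K, at -0.94 ± 0.17 (adjusted p = 0.00548 in exon and 0.00559 in entire-gene reads), with 2392, 2801 and 3299 in MNEB and 1574, 1427 and 1432 in SNEB cows. None passed in the other 4 comparisons. The median difference over the tested genes of the list lay between 0.02 and 0.14 in the 6 comparisons. At an unadjusted exon p below 0.05 the list gave 8 of 23 genes in MNEB cows from before calving to 1 wkpp (42.3% of all genes) and 7 of 23 in SNEB cows (14.5%). It gave 3 of 21 in MNEB and 2 of 23 in SNEB cows from 1 to 16 wkpp (13.5% and 7.2% of all genes). For SNEB against MNEB cows it gave 6 of 23 at 1 wkpp and 8 of 23 at 16 wkpp (32.6% and 37.9% of all genes). *PDK1* was among these genes in 3 of the 6 comparisons.

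Across the 15 libraries, the genes whose log2 level most resembled that of *GHR* were *HADHB*, a subunit of the mitochondrial trifunctional protein of fatty acid oxidation (Pearson r = 0.954), *CPNE3* (0.954), *ACVR1C*, an activin receptor of adipocytes (0.953), *SPINT2* (0.947) and *TMCO1* (0.945), among 8015 genes ranked. Those most like *IGF1* included *IL11RA*, the interleukin 11 receptor (0.905), *TGFBI*, an extracellular matrix protein (0.904), and *PLD3* (0.899). Among the members, *GHR* ran with *IGFBP3* (r = 0.748) and *IGF2R* (0.714) and against *IGF1R* (-0.867) and *IGF2* (-0.769), *IGF2R* ran with *IGFBP4* (0.815), and the neighbours *IGFBP2* and *IGFBP5* ran against each other (-0.667). These correlations describe the same 15 libraries, which share groups and depth.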

How the data were processed

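RNA of subcutaneous adipose tissue was sequenced in 15 libraries. Per the labels and the methods of the study, the authors made directional total RNA libraries after ribosomal depletion, trimmed reads with cutadapt 1.3 (after bcl2fastq 2.15.0), mapped them to bosTau8 with TopHat2, counted reads with HTSeq on exons and on the entire gene, and compared groups with DESeq2. The strand setting of the counting is not given in the sources used here. The deposited tables, 1 for each of 6 comparisons, hold for each gene the authors' mean of normalized counts over 6 libraries, and columns of the authors' own comparisons (log2 fold changes with errors, test statistics and p-values), which were not used. No column belonged to other samples (0).

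The means are printed to 15 significant digits and each library enters several tables, so the whole reads of each library were recovered from them by lattice reduction, with size factors from genes with 1 read. Exon reads were solved for 13893 of 13896 genes and entire-gene reads for 13894; *COL1A1* (exons), *COL3A1* and *RN7SL1* were left out, as were 4 and 6 of 92 spike-ins. On simulated reads 13980 of 13981 and 13980 of 13980 entries were exact and 0 were wrong. Exon reads did not exceed entire-gene reads in 98.8 to 98.9% of genes within a library and in 19.7 to 98.2% when exon reads were set against another library of the group, so libraries of like depth are told apart by a narrow margin in this check.

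Reads were scaled by medians of ratios and tested with limma 3.58.1 (voom, R 4.3.3) over genes with a mean of at least 10 exon reads in the 6 libraries of a comparison, adjusted by Benjamini-Hochberg over all of them. On simulated reads, 60% of 4-fold and 0% of 2-fold changes were found for the SNEB comparison of 1 with 16 wkpp (10644 genes), and 60% and 1% from before calving to MNEB cows at 1 wkpp (10504 genes), with 0 false calls. The simulation gave every gene the same dispersion and drew exon and entire-gene reads independently. These rates therefore need not hold for the real libraries. Since the labels do not tie libraries to animals, p-values measure the spread between libraries. The members are described in full, pathway genes were named where they passed, and the 5 genes most like *GHR* and *IGF1* were taken by Pearson r among genes with a mean of at least 100. Not every gene so chosen is reported here. Members and lists were chosen with earlier results of these data known. No sequences are shown.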

Additional observations from a re-analysis of the deposited data

How the results depend on the processing

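Of the alternatives to the differences of single members, 28 turned the sign, 18 ended and 8 made a call in exon reads, and 456 did neither, while the number of members that passed moved with the settings. From before calving to 1 wkpp in MNEB cows 1 member passed, *IGFBP6*. It was 2 with total count scaling, with the upper quartile and with all 15 libraries in the fit, *IGF2* being the member gained each time. It was 5 with exon reads alone, 4 at an adjusted p below 0.05, 6 with a quality weight per library, 0 without a filter on low counts and 0 with limma trend, and the same comparison passed 78 to 1746 genes over these settings. With a quality weight 1 member, *IGFBP6*, passed in SNEB cows from before calving to 1 wkpp. For SNEB against MNEB cows at 1 wkpp 0 members passed, against 1 with exon reads alone (*GHR*), 1 at an adjusted p below 0.05 and 1 with all 15 libraries (*IGFBP3*), and 2 with a quality weight. At 16 wkpp 1 passed, against 3 at an adjusted p below 0.05, 2 with all 15 libraries and 0 with limma trend. The alternative with only the deepest MNEB library of each week, chosen after seeing the data, gave 0 members before calving against MNEB at 1 wkpp, 0 for SNEB against MNEB at either week and 0 in the interaction, and the lone library is assumed to vary like the other group; from 1 to 16 wkpp in MNEB cows it leaves no residual error and was not run. The cause of these moves was not tested. Leaving out libraries changed both their number and their make-up.

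Leaving out 1 library at a time gave 0 to 1 members before calving against MNEB at 1 wkpp, 0 to 1 against SNEB at 1 wkpp, 0 to 2 for SNEB against MNEB at 1 wkpp and 0 to 1 at 16 wkpp, and 0 in the other comparisons and the interaction. It turned the sign of 10 differences. These ranged over -0.20 to 2.38 for *IGFBP2* and -0.55 to 0.15 for *IGFBP5* from before calving to SNEB at 1 wkpp, -0.24 to 0.10 for *IGF2R* in MNEB from 1 to 16 wkpp, -1.08 to 1.18 for *IGFBP2* between the NEB groups at 1 wkpp and -0.0062 to 0.58 for *IGFBP4* at 16 wkpp. In SNEB from 1 to 16 wkpp they ranged over -0.20 to 0.58 for *IGF1*, -0.20 to 0.19 for *IGF1R*, -0.28 to 0.13 for *IGF2R*, -0.34 to 0.19 for *IGFBP3* and -0.24 to 0.48 for *IGFBP4*. With total count scaling, the change from 1 to 16 wkpp in SNEB became -0.067 for *IGF1R* and -0.023 for *IGFBP4*, and no other member changed sign. Entire-gene reads gave -0.24 and -0.054 for the same genes, and for *IGF1R* 0.041 in MNEB from 1 to 16 wkpp and 0.084 between the NEB groups at 1 wkpp. Total count scaling moved the median of all genes by 0.16 and 0.12 before calving against MNEB and SNEB at 1 wkpp and by less than 0.1 elsewhere. No paired analysis was possible because the labels tie no library to a cow and the recovered libraries carry no replicate number. Read numbers were lowest for *IGF1* in MNEB cows and for *IGFBP2*, and how far this limits them was not tested.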
